A study of Mus musculus with 6 samples.

Results

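Cytosolic ribosomal protein genes were described in N2A cells, a mouse neuroblastoma line, treated with an shRNA that targets PTB, the polypyrimidine tract binding protein (3 arrays), or with an empty vector (3 arrays). Total RNA depleted of ribosomal RNA was hybridised to mouse exon arrays, and the values are gene-level signals, in arbitrary intensity units, of 17213 rows, each a transcript cluster. By the titles the 3 arrays of a group are biological replicates, and by western blot against GAPDH about 80% of the PTB protein was lost. Neither a control hairpin nor untreated cells were analysed here, so an effect of PTB loss and an effect of expressing a hairpin cannot be told apart. Members were the genes with a row that carries exactly 1 symbol of the form Rpl or Rps followed by a digit, Rplp0 to Rplp2 or Rpsa, without the S6 kinase names, Rps19bp1 and pseudogenes. Of 86 such rows, 7 kinase or binding protein rows and 3 pseudogene rows (Rpl19-ps7, Rps3a3 and Rps4l) were left out. The remaining 76 rows belonged to 47 genes, 33 of the large and 14 of the small subunit, out of 14807 genes with a row that carries 1 symbol. For the 21 genes with several rows the brightest row stood for the gene, which need not be the row at the gene's own place in the genome. A further 29 ribosomal protein genes, among them Rpl3, Rpl7a, Rps2, Rps6 and Rps19, appeared only in rows shared with pseudogenes or other genes and are not described here.

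Ribosomal proteins clothe the RNA of the large subunit, which joins amino acids, and of the small subunit, which reads the messenger RNA. Their genes are transcribed at high levels in growing cells, and their mRNAs are known for a terminal oligopyrimidine tract (TOP), a run of C and T letters that opens the transcript and ties its translation to growth signalling through mTOR and LARP1. Many of these genes have processed pseudogenes, so an array row may also record near-identical copies, which these signals cannot separate. By their identifiers, the rows used for some genes, such as Rpl10a, Rpl23a and Rpl31, fall among rows of genes on other chromosomes. Those rows may therefore lie at such copies. In a bulk sample, fewer cells of a type and less RNA per cell cannot be told apart.

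The labels were checked on the targeted gene and on cell markers. Ptbp1, which encodes PTB, had signals of 1307, 1040 and 1957 on the PTB shRNA arrays, against 3387, 4203 and 4404 on the empty vector arrays (log2 difference -1.51 ± 0.25, SE; adjusted p = 0.0402, limma). Of 16 measured neuronal and sympathoadrenal markers, all but Nefl, Nefm and Th had mean signals of at least 259.7 in PTB shRNA cells and 174.7 in empty vector cells, led by Gap43 with 5005 in PTB shRNA cells and 3346 in empty vector cells. Th, which makes the precursor of the catecholamines, averaged 47.7 in PTB shRNA cells and 31.7 in empty vector cells, and the neurofilament genes Nefl and Nefm were dimmer still. Of these 16, 9 had positive and 7 negative differences. In 3 every PTB shRNA array lay above every empty vector array, and in 3 below, Gata2 (-0.64), Chgb (-0.54) and Phox2a (-0.53). Only Gata3, a sympathoadrenal transcription factor, was called, as higher (328 in PTB shRNA cells and 174.7 in empty vector cells; log2 difference 0.87, adjusted p = 0.0384, limma), beside 1.36% of all rows. After quantile normalization Gata3, Gap43 and Elavl4 were called higher, beside 2.92% of all rows. Mean signals of 20 fibroblast, glial, leukocyte and epithelial markers reached at most 130.0 in PTB shRNA cells and 86.0 in empty vector cells, and 1 of them was called, Pdgfra, at 102 in PTB shRNA cells against 36.0 in empty vector cells. The part of these markers in the results was not tested. The summed signal of an array was between 9098056 and 10440265 with PTB shRNA and between 10651755 and 12509077 with empty vector, and the small number of arrays limits the precision.

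Signals of most ribosomal protein genes were lower with PTB shRNA. Each difference is the PTB shRNA mean minus that of empty vector, taken on log2(signal + 16), and a gene was called when its adjusted p was under 0.05 in limma's moderated test, fitted and adjusted over all 17213 rows. Over the 47 genes the median log2 difference was -0.57, beside 0.00 over all rows. It was negative in 45 of the 47 genes, beside 51.4% of all rows. The test called 7 genes lower (14.9%) and 0 higher, beside 3.37% of all rows called lower and 1.36% called higher. In 33 of the 47 genes every PTB shRNA array lay below every empty vector array, as was so in 19.0% of all rows. In 0 genes did every PTB shRNA array lie above every empty vector array, as was so in 10.3% of all rows, and in the other 14 genes the groups overlapped. At an unadjusted p under 0.05, 33 genes were lower and 0 were higher in the same test, beside 16.9% of all rows lower and 8.49% higher.

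These counts rest on all 6 arrays and on the scale. With any 1 of the 6 arrays left out, limma called 0 of all rows, and so 0 of these genes. At an unadjusted p under 0.05, 20 to 38 genes were then lower, beside 11.7% to 17.5% of all rows, and 1 was higher, Rpl3l without the second PTB shRNA array. The median log2 difference of the genes lay between -0.66 and -0.45. A pseudocount of 1 in place of 16 also gave 0 calls among these genes, beside 0.767% of all rows called lower, with 31 genes lower at an unadjusted p under 0.05, beside 15.9% of all rows.

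The genes that fell belong to different places on the ribosome. Rpl4 encodes a core protein of the large subunit that reaches into the exit tunnel. Its signals were 7110, 5253 and 7233 with PTB shRNA, against 11879, 12744 and 13279 with empty vector. No array of one group reached the range of the other, and the log2 difference was -0.96 ± 0.15 (SE; adjusted p = 0.0364, limma). Rpl28, a protein found in the eukaryotic large subunit, had signals of 4292, 3333 and 4912 with PTB shRNA, against 7599, 7891 and 8781 with empty vector. Here too the groups lay apart, with the widest log2 difference of the 47 genes, -0.97 ± 0.16 (SE; adjusted p = 0.0405, limma).

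Rpl23a sits at the rim of the tunnel exit, where the signal recognition particle docks. It had signals of 2077, 1808 and 2462 with PTB shRNA, against 3481, 4091 and 4781 with empty vector, and fell by 0.95 ± 0.17 on the log2 scale (SE; adjusted p = 0.0443, limma). Rpl12 lies at the base of the stalk that engages the elongation factors. Its signals were 4408, 3210 and 4335 with PTB shRNA, against 6476, 7787 and 8320 with empty vector (log2 difference -0.92 ± 0.17, SE; adjusted p = 0.0468, limma). Rpl14, another protein of the large subunit, had signals of 4345, 3255 and 4253 with PTB shRNA, against 7047, 6700 and 8117 with empty vector (-0.89 ± 0.15, SE; adjusted p = 0.0405, limma). In each of these 3 genes the second PTB shRNA array was the lowest of all 6 arrays.

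Rpl10a forms the stalk through which spent transfer RNA leaves. Its signals were 6406, 4689 and 6285 with PTB shRNA, against 9854, 10941 and 9349 with empty vector, and it was the member nearest the threshold among those called (log2 difference -0.80 ± 0.15, SE; adjusted p = 0.0492, limma). Of the small subunit genes only Rps20, a protein of the subunit's head, was called. It had signals of 2881, 2390 and 3074 with PTB shRNA, against 4303, 4847 and 5634 with empty vector, groups that did not overlap (-0.82 ± 0.15, SE; adjusted p = 0.0452, limma). Rps3, which lines the channel where mRNA enters, had a slightly wider log2 difference of -0.84 ± 0.18 (SE) and was not called (adjusted p = 0.0625, limma). Its signals were 4544, 3581 and 4805 with PTB shRNA, against 6630, 7248 and 9337 with empty vector, so the third empty vector array stood well above the other two of that group.

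**Figure D1:**
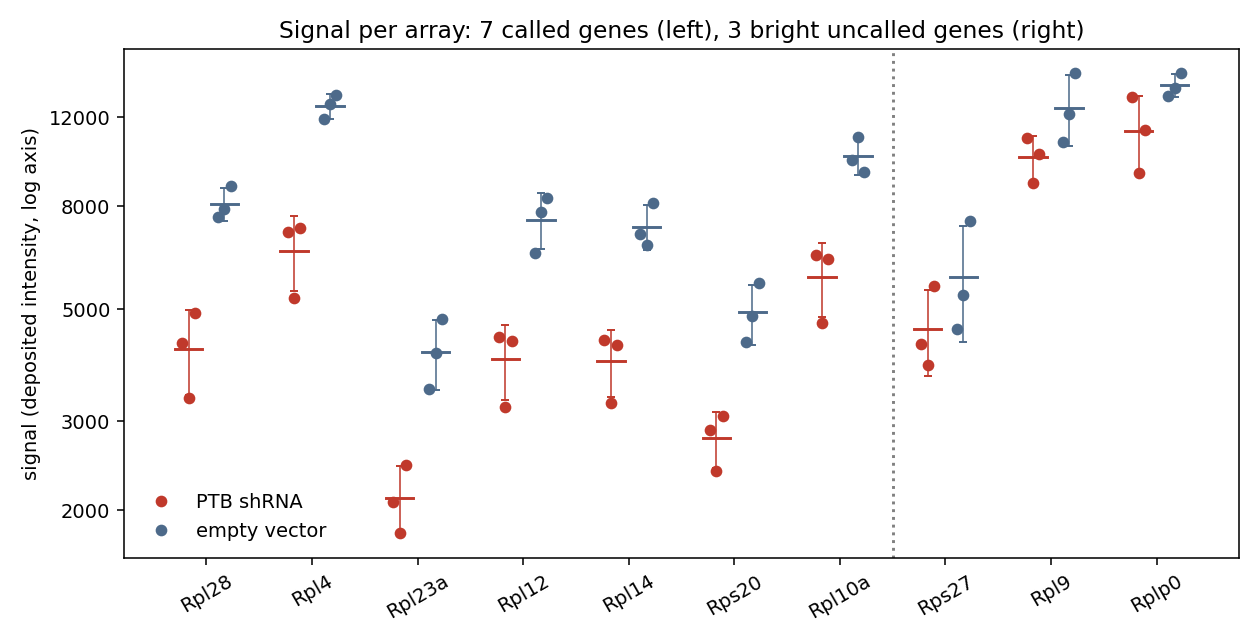
Signal of each array on a log axis for the 7 called genes, left of the dotted line, and 3 bright uncalled genes, with PTB shRNA left of empty vector for each gene; points are arrays, horizontal lines are means and error bars are SD of 3 arrays. The groups lie apart in Rpl28, Rpl4, Rpl23a, Rpl12, Rpl14, Rps20 and Rpl10a and overlap in Rps27 and Rpl9.

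Some bright genes had smaller falls and were not called. Rplp0 encodes the protein that anchors the acidic stalk proteins to the large subunit and is often used as a reference gene. Its signals were 13172, 9312 and 11313 with PTB shRNA, against 13233, 13721 and 14704 with empty vector, so the first PTB shRNA array came close to the lowest empty vector array (log2 difference -0.31 ± 0.15, SE; adjusted p = 0.250, limma). Rpl9, of the large subunit, had signals of 10928, 8882 and 10164 with PTB shRNA, against 10730, 12164 and 14691 with empty vector, and the groups overlapped (-0.32 ± 0.15, SE; adjusted p = 0.258, limma). Rps27, a zinc-binding protein of the small subunit, had 4271, 3875 and 5567 with PTB shRNA, against 4575, 5347 and 7470 with empty vector, again with overlap (-0.33 ± 0.23, SE; adjusted p = 0.434, limma).

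Start-site sequences are shown because the TOP tract lies there and the genes moved mostly 1 way. RefSeq (GRCm38.p6) listed a start for 40 of the 47 genes, and the first listed start was taken; Rpl23a and Rps20 are among the 7 without one. Each line gives 30 bases on the gene's strand, 15 before the listed start and 15 from it on, with the longest unbroken run of C and T in capitals. First come the called genes, Rpl28 at chr7:4792950-4792979 (plus strand), Rpl4 at chr9:64173372-64173401 (plus), Rpl12 at chr2:32961697-32961726 (plus), Rpl14 at chr9:120571502-120571531 (plus) and Rpl10a at chr17:28328456-28328485 (plus). Then come bright genes with smaller differences, Rplp0 at chr5:115559452-115559481 (plus), Rpl9 at chr5:65391417-65391446 (minus) and Rps27 at chr3:90213634-90213663 (minus).
Rpl28: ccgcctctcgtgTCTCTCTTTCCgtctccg
Rpl4: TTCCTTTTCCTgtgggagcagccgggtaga
Rpl12: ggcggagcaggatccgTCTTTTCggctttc
Rpl14: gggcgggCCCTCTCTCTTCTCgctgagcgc
Rpl10a: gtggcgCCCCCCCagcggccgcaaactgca
Rplp0: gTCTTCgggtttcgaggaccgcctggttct
Rpl9: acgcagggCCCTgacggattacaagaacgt
Rps27: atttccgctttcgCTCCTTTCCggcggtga

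A run of at least 8 C or T letters on the gene's strand was found in these 30 bases in 18 of 40 genes (45.0%), beside 3943 of 32851 listed mouse starts. The count takes runs anywhere in the window. Those of Rpl4, Rpl34, Rps15a, Rpl31 and Rps27l lay wholly before the listed start, outside the listed transcript. The first base was C in 13 of 40 genes (32.5%), beside 16.3% of all starts. The longest run had 11 letters in Rpl28, 11 in Rpl4, 14 in Rpl14, 7 in Rpl12 and 7 in Rpl10a, against 5 in Rplp0, 4 in Rpl9 and 9 in Rps27. These genes were chosen for their differences, and other uncalled genes had longer runs, with 18 letters in Rpl35, 17 in Rpl15 and 13 each in Rpl13a and Rps10. In all, 3 of 5 called genes and 15 of 35 uncalled genes had a run of at least 8. The uncalled ones included Rps18 (11), Rpl31 (10) and Rps27l (9), whose log2 differences lay between -0.17 and 0.13. The rows of Rps18 and Rpl31 were dim, and brighter rows of both genes carry several symbols and were not used. Genes with a run of at least 8 had a median log2 difference of -0.60 (18 genes). Those without it had -0.49 (22 genes), a description with no test. In the 300 bases from 250 before to 50 after the start, CCGGAA, the core that ETS factors bind, was found on either strand in 45.0% of the 40 genes and 14.9% of all starts. ATGGCG, the core bound by YY1, was found in 32.5% of the genes and 8.93% of all starts. The reverse strand of CCGGAA begins with pyrimidines and can overlap a run. A listed start can differ from the start used in these cells, so a missing run says only that these letters are not in this window.

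Large and small subunit genes differed by much the same amount. The median log2 difference was -0.57 over 33 large subunit genes, of which 31 were negative, 24 had groups that did not overlap and 6 were called lower (18.2%, beside 3.37% of all rows). It was -0.55 over 14 small subunit genes, of which all 14 were negative, 9 had groups that did not overlap and 1 was called lower (7.14%). Over all rows 51.4% were negative, and in 19.0% every PTB shRNA array lay below every empty vector array. Among the other rows in the brightest 10% these were 82.0% and 633 of 1664 rows. The other rows are all but the 76 member rows. They include rows with several symbols that name ribosomal protein genes. The median of the large subunit genes minus that of the small ones was -0.01. Each array was also described by its members' mean log2 deviation from each gene's empty vector mean. For the large subunit this was -0.45, -0.72 and -0.43 on the PTB shRNA arrays, against -0.20, 0.01 and 0.19 on the empty vector arrays. For the small subunit it was -0.50, -0.75 and -0.33 on the PTB shRNA arrays, against -0.25, 0.00 and 0.25 on the empty vector arrays. In both subunits every PTB shRNA array lay below every empty vector array. After quantile normalization, which gives all arrays the same distribution of values, this held for the large subunit only. The small subunit then had -0.32, -0.33 and -0.08 on the PTB shRNA arrays, against -0.12, 0.02 and 0.10 on the empty vector arrays, which overlap. The large minus small value was 0.05, 0.03 and -0.10 with PTB shRNA, against 0.05, 0.01 and -0.06 with empty vector, and the groups overlapped (pooled SD within groups 0.067).

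**Figure D2:**
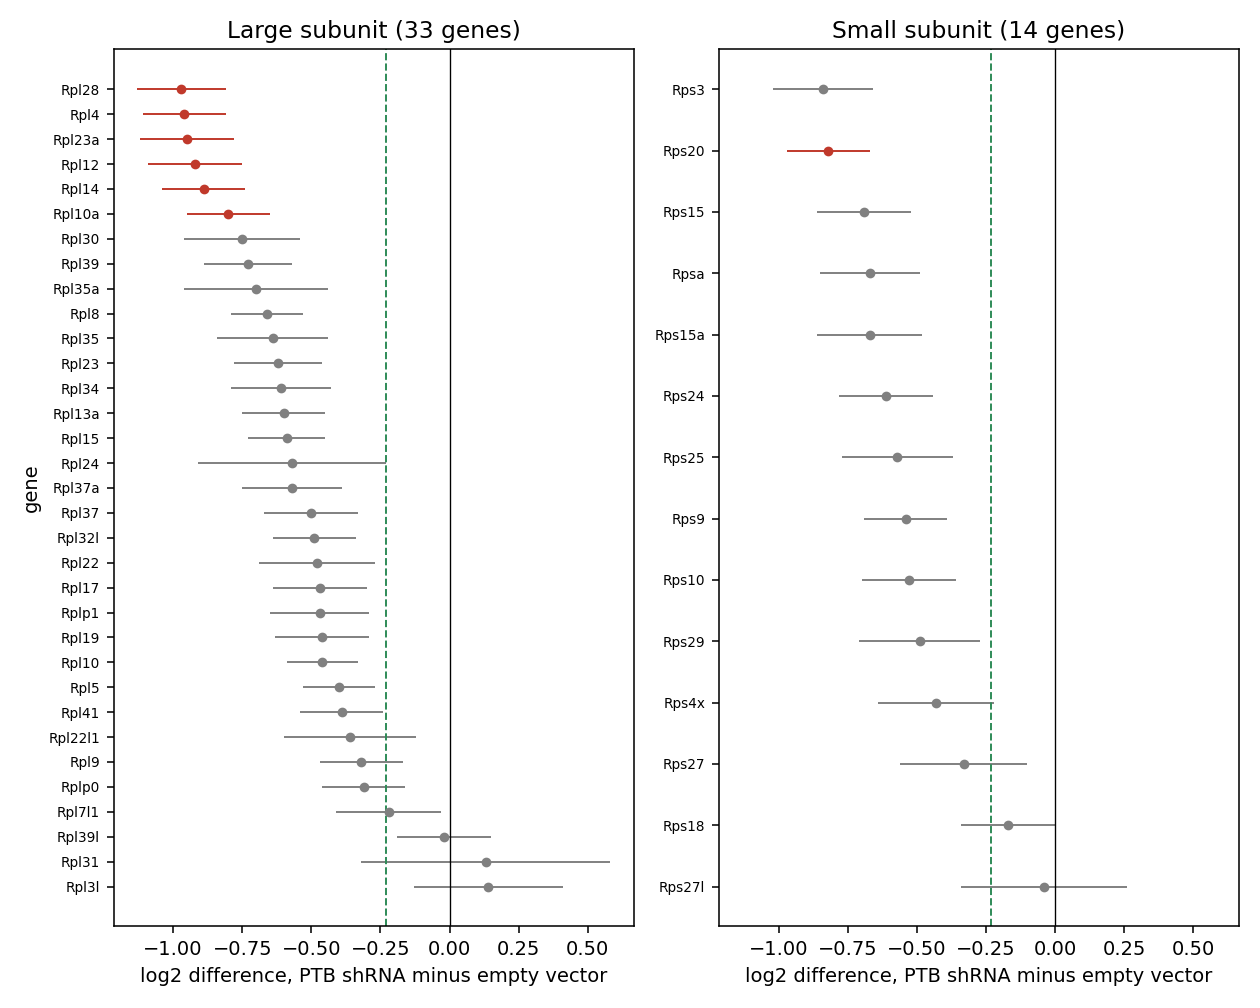
Log2 difference (PTB shRNA minus empty vector) with its standard error for each large subunit gene (left) and small subunit gene (right), called genes in red; the dashed green line marks the median of rows other than the member rows among the brightest 10% (-0.23). Most genes of both subunits lie left of the line, from -0.97 for Rpl28 to -0.84 for Rps3 at the low ends.

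Within the large subunit, genes next to each other on the ribosome had log2 differences of varied size, and differences between genes were not tested. In the stalk region Rpl12 was called, while the acidic protein gene Rplp1 had a log2 difference of -0.47 and Rplp0 of -0.31. Near the site where amino acids are joined, Rpl4 was called, Rpl8 missed the threshold (-0.66, adjusted p = 0.0521, limma), and Rpl10, whose protein is added late in assembly, had -0.46 (adjusted p = 0.0975, limma). Its signals were 13496, 9927 and 11521 with PTB shRNA, against 15726, 16141 and 15986 with empty vector, so it varied little among the empty vector arrays. Of 6 measured genes of the tunnel exit rim, Rpl23a was called, and Rpl39 (-0.73), Rpl35 (-0.64), Rpl17 (-0.47) and Rpl19 (-0.46) were not. The sixth, Rpl31, had a dim row, at 82, 45 and 44 with PTB shRNA, against 18, 84 and 65 with empty vector (0.13 ± 0.45, SE; adjusted p = 0.897, limma). Rpl5, whose protein carries the 5S RNA into the large subunit, had a log2 difference of -0.40 (adjusted p = 0.125, limma).

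Of 7 measured genes of the small subunit's head and beak, Rps20 was called, and Rps3, Rps15 (-0.69), Rps25 (-0.57), Rps10 (-0.53), Rps29 (-0.49) and Rps18 (-0.17) were not. Rps18, read from a dim row, had 98, 120 and 121 with PTB shRNA, against 101, 132 and 157 with empty vector, and the groups overlapped (adjusted p = 0.599, limma). Rpsa, also known as a laminin receptor, had -0.67, Rps15a -0.67, Rps24 -0.61, Rps9 -0.54 and the X-linked Rps4x -0.43, none called. In 6 measured genes that cause Diamond-Blackfan anemia in humans when 1 copy is lost, the log2 difference ran from -0.70 for Rpl35a to -0.40 for Rpl5, with 0 called by limma. Other large subunit genes were Rpl23 (-0.62), Rpl34 (-0.61), Rpl13a (-0.60), Rpl15 (-0.59), Rpl37a (-0.57), Rpl37 (-0.50), Rpl32l (-0.49) and Rpl41 (-0.39), the last a very short basic protein, and none was called. Of the 40 uncalled members, 11 had an adjusted p between 0.05 and 0.1.

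Rpl39l, Rps27l, Rpl22l1, Rpl7l1 and Rpl3l, named as paralogs of ribosomal protein genes, had smaller differences than most members. Rpl32l, named after Rpl32, had -0.49. Of these genes only Rpl7l1 and Rpl32l were in the brightest 10% of rows. Rpl39l, best known from male germ cells, had signals of 655, 624 and 591 with PTB shRNA, against 511, 615 and 802 with empty vector. These groups overlapped fully (log2 difference -0.02 ± 0.17, SE; adjusted p = 0.965, limma), while its parent Rpl39 had 1292, 1314 and 1499 with PTB shRNA, against 2301, 1889 and 2724 with empty vector, which did not overlap. Rps27l, known as a p53-induced paralog, had 561, 385 and 550 with PTB shRNA, against 333, 573 and 678 with empty vector (-0.04 ± 0.30, SE; adjusted p = 0.959, limma), and its parent Rps27 is given above. Rpl22l1 had a log2 difference of -0.36, beside -0.48 for Rpl22, and groups overlapped in both. Rpl7l1, a paralog of Rpl7, had 2179, 2005 and 2435 with PTB shRNA, against 1979, 2749 and 3103 with empty vector (-0.22 ± 0.19, SE; adjusted p = 0.523, limma). Rpl3l, the striated muscle paralog of Rpl3, was near the background, at 33, 11 and 32 with PTB shRNA, against 19, 26 and 16 with empty vector (0.14 ± 0.27, SE; adjusted p = 0.781, limma). Whether a paralog and its parent differ in response was not tested.

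Most of these genes had bright rows, and bright rows of other genes were also mostly lower, so values within a range of brightness are given. Of the 47 genes, 39 were in the brightest 10% of rows. In that brightness range the median log2 difference was -0.59 over the members, with 7 of 39 called lower (17.9%). It was -0.23 over 1664 rows other than the member rows, with 84 called lower (5.05%) and 3 higher. These other rows include rows with several symbols that name ribosomal protein genes, such as Rpl7 (-0.58) and Rpl6 (-0.66). The sets are therefore not fully apart. All 39 members were negative there and 32 had groups that did not overlap, with PTB shRNA lower, beside 1365 (82.0%) and 633 of the 1664 other rows. In the brightest 1% it was -0.49 over 19 members and -0.35 over 149 other rows, of which 146 were negative. Across genes, which share these arrays, Spearman's rho of the log2 difference with mean signal was -0.10 over the 47 members, 0.31 over the 39 bright ones and -0.14 over the 1664 other rows. Pearson's r was -0.51, 0.22 and -0.15 over the same sets, so among the bright members brighter genes had, weakly, the smaller falls. The 8 dimmer members had a median of -0.10 and 0 calls in limma. Among them the rows of Rpl24, Rpl30, Rpl31 and Rps18 had mean signals between 55.7 and 340.3 with empty vector, and those of Rpl24, Rpl30 and Rps18 lay between the 43.9th and 53.9th percentile of all rows. Brighter rows of these 4 genes carry several symbols and were not used. How the brightest probes behave near the scanner's ceiling is not given in the sources used here.

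**Figure D3:**
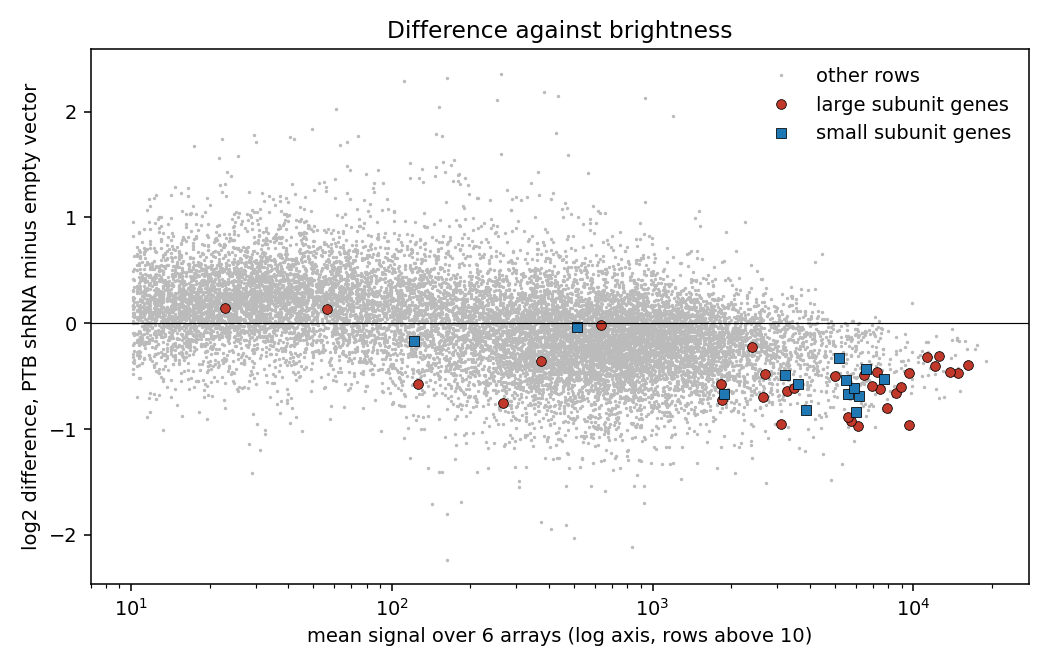
Log2 difference (PTB shRNA minus empty vector) against mean signal over the 6 arrays, on a log axis, for rows with a mean signal above 10; circles are the 33 large subunit genes, squares the 14 small subunit genes and grey dots other rows. Nearly all members lie at the bright end below 0, where other rows also lie mostly below 0.

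Quantile normalization made most of the differences smaller. The members' median log2 difference was then -0.25, with 41 of 47 genes negative, and that of the other rows in the brightest 10% was 0.03. It called 6 members lower and 0 higher, beside 2.87% of all rows lower and 2.92% higher. All 6 had been called on the values as deposited, and they were Rpl23a (-0.72), Rpl28 (-0.63), Rpl12 (-0.60), Rpl4 (-0.56), Rpl14 (-0.56) and Rps20 (-0.54). Rpl10a was no longer called (-0.42, adjusted p = 0.123, limma). Signs turned in Rplp0 (0.05), Rpl9 (0.05), Rps27 (0.03), Rpl7l1 (0.01), Rps27l (0.16) and Rpl39l (0.18), which became positive, and in Rpl31 and Rpl3l (each -0.07), which became negative. None of these 8 was called either way.

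**Figure D4:**
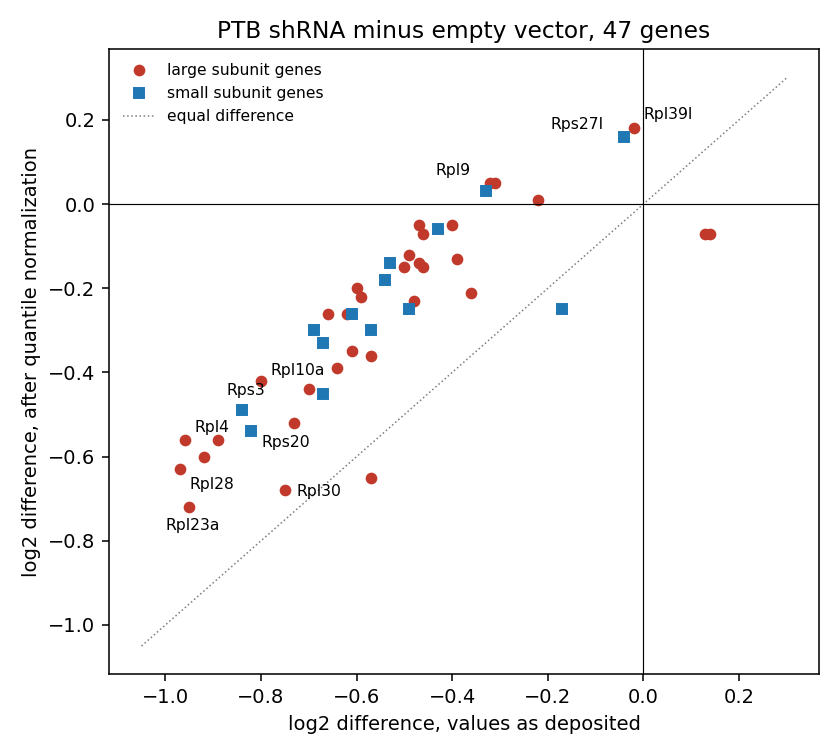
Log2 difference (PTB shRNA minus empty vector) of the 47 genes on the values as deposited (horizontal) and after quantile normalization (vertical), with circles for the large and squares for the small subunit and a dotted line of equal values. Most genes move toward 0, to a median of -0.25, and Rpl23a, Rpl28, Rpl12, Rpl4, Rpl14 and Rps20 are the lowest among genes in the brightest 10% of rows.

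Rows of the same gene mostly gave like values. In 16 of the 21 genes with several rows the log2 differences lay within 0.2 of each other, as in Rpl10a (-0.82 and -0.80), Rpl12 (-0.92 and -0.89) and the 4 rows of Rpsa (-0.75 to -0.64). The widest spreads were in Rps25 (0.66), Rps24 (0.62), Rpl17 (0.54) and Rpl19 (0.43). In Rpl17 the brightest row gave -0.47, while a row at 1525, 1610 and 2248 with PTB shRNA and 3463, 3562 and 3744 with empty vector gave -1.01 (adjusted p = 0.0382, limma). Rps24 was the only gene with rows of both signs, and its positive row (0.01) was dim, at 36 to 55 on all arrays.

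Seen as a share of the array, the 47 rows made up 2.17%, 1.96% and 2.24% of the summed signal on the PTB shRNA arrays, against 2.58%, 2.64% and 2.80% on the empty vector arrays. Every PTB shRNA array had a smaller share than every empty vector array. The second PTB shRNA array was the lowest of its group in 38 of the 47 genes, and the third empty vector array the highest of its group in 42. These arrays also had the lowest and the highest summed signal of their groups and of the series. The part of array brightness in the result was not tested beyond the normalized values above.

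Other genes tied to ribosomal protein mRNAs were read from lists of known genes. Fau, which encodes a ribosomal protein fused to a ubiquitin-like protein, had signals of 4659, 3585 and 4793 with PTB shRNA, against 6449, 6530 and 7950 with empty vector (log2 difference -0.69, adjusted p = 0.0687, limma). All 15 measured genes of other TOP mRNAs had negative differences, with a median of -0.50 and 0 called by limma, and 14 had groups that did not overlap. The same shares over all rows were 51.4% negative and 19.0% not overlapping, with PTB shRNA lower. Of the 1664 rows in the brightest 10% other than the member rows, 82.0% were negative. In 633 of them every PTB shRNA array lay below every empty vector array. Widest among them were Eif3k (-0.86, adjusted p = 0.0534), a subunit of an initiation factor, and Eif4b (-0.72, adjusted p = 0.0628), a cofactor of the initiation helicase, both by limma. After quantile normalization 11 of the 15 were negative, with a median of -0.15, and Eif3k was called (adjusted p = 0.0434, limma).

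Of 15 measured regulators of ribosomal protein mRNAs, 1 was called lower (6.67%, beside 3.37% of all rows), the transcription factor gene Yy1 (-0.52 ± 0.08, SE; adjusted p = 0.0342, limma, and 0.0849 after quantile normalization). It had signals of 979, 941 and 1000 with PTB shRNA, against 1422, 1350 and 1445 with empty vector. Larp1 (-0.73, adjusted p = 0.0785) and Myc (-0.55, adjusted p = 0.106, both by limma) had wider log2 differences and were not called. After quantile normalization the regulators had 0 called lower and 1 called higher, Rptor, which encodes an mTOR complex subunit (0.38, adjusted p = 0.0361, limma; 0.19 and uncalled as deposited). None of 8 measured chaperones and assembly factors of ribosomal proteins was called by limma. Their median was -0.14, with Nob1, an endonuclease that matures small subunit RNA, widest at -0.57 (adjusted p = 0.0803) and Tsr2, a chaperone of Rps26, next at -0.22. Of 2 measured hosts of small nucleolar RNAs, Gas5 was called lower (-0.57, adjusted p = 0.0439, limma, and 0.157 after quantile normalization), beside 3.37% of all rows. The other, Snhg5, had a wider log2 difference of -0.83 and was not called (adjusted p = 0.0922, limma).

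The 73 measured mitochondrial ribosomal protein genes, which serve the separate ribosome of mitochondria, had a median log2 difference of -0.31, with 63 negative and 6 called lower (8.22%, beside 3.37% of all rows). Mrps15 (-1.32), Mrpl23 (-1.04) and Mrps18b (-1.02) led them, each wider than any cytosolic gene described here. Mrps15 had signals of 725, 526 and 802 with PTB shRNA, against 1736, 1694 and 1695 with empty vector. Their mean deviation per array was -0.35, -0.43 and -0.18 with PTB shRNA, against -0.22, 0.04 and 0.18 with empty vector, so the groups overlapped, as they did not for the cytosolic genes. After quantile normalization the mitochondrial median was -0.13, with 48 of 73 negative, 5 called lower and 1 higher. The difference between the sets was not tested.

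**Figure D5:**
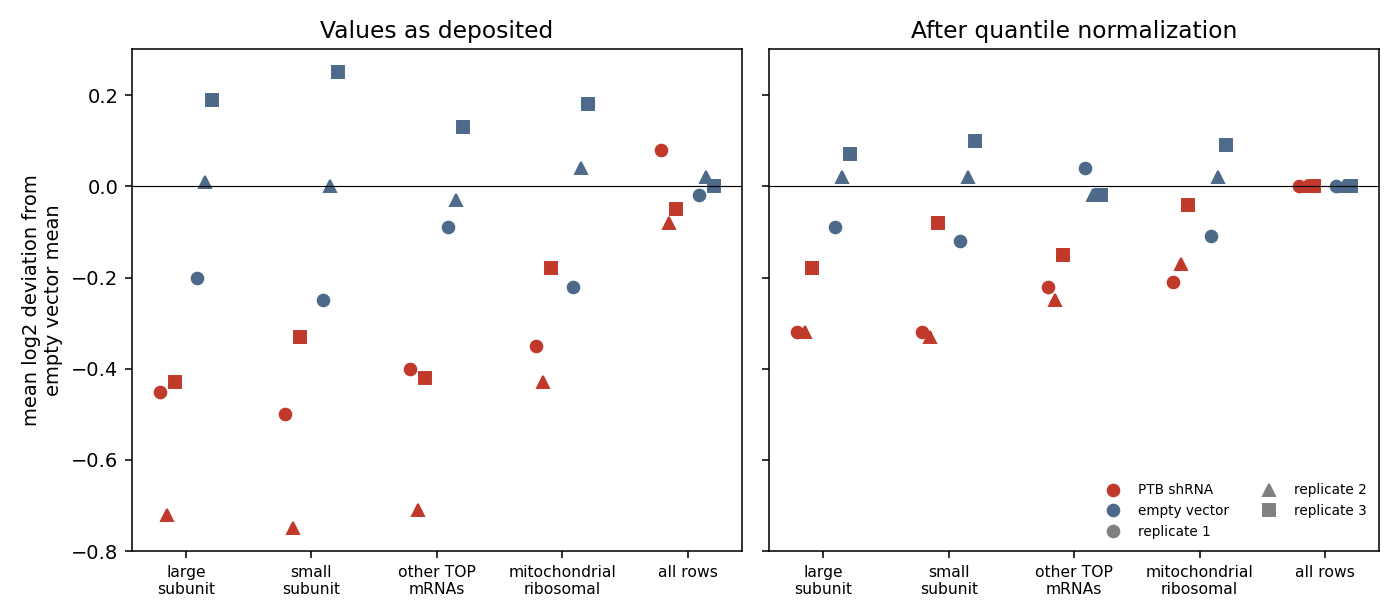
Mean log2 deviation of each array from the empty vector mean, on the values as deposited (left) and after quantile normalization (right), for large and small subunit genes, other TOP mRNAs, mitochondrial ribosomal protein genes and all rows, with PTB shRNA left of empty vector and a marker shape per replicate number. Large and small subunit genes lie together, at -0.72 and -0.75 on the lowest array, and all rows stay between -0.08 and 0.08.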

How the data were processed

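The deposited values are linear intensity per transcript cluster, as whole numbers from -616 to 23431, 1 column per array. The submitters' processing notes name GCOS 1.3; how the authors summarised probes, subtracted background and scaled arrays is not given in the sources used here. Labels were prepared from 1 µg of total RNA, per the labels' protocols. Rows were named through the platform annotation, in which 15146 rows had 1 symbol, 1278 several and 789 none. Of 76 member rows, 74 matched RefSeq (GRCm38.p6) by Entrez identifier and 2 by symbol.

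Negative values became 0, 16 was added and log2 taken, without normalization or filtering; this scale understates changes of dim genes. Rows were fitted with limma 3.58.1 (lmFit, eBayes; R 4.3.3) on 6 arrays without a block, with 4 residual degrees of freedom, and Benjamini-Hochberg adjustment over 17213 rows. An exact test of 3 arrays against 3 cannot go below p = 0.1. Tested on simulated data of this comparison (17213 rows, changes among the brightest 10%), the fit recovered 20% of 100 changes of 1 log2 unit and 1% of 100 changes of 0.5. The simulation drew noise separately for each row and changed only these rows, unlike the data, so its rates need not hold for them. The members and lists were chosen with earlier results of these data known. All members could be named, with every called member and the 6 of smallest difference in full, and up to 3 genes per related list. No per-sample column was left unused (0). Replicate numbers were checked for pairing. Correlations of same-numbered deviations were 0.23, 0.05 and 0.26, and those of differently numbered ones ran from -0.26 to 0.05. The replicate numbers were not taken as pairs, though these values cannot exclude a pairing. Alternatives were other pseudocounts (1 and 50), quantile, median-centring and cyclic loess normalization, filters on dim rows, trended and robust eBayes, array weights, the mean of a gene's rows, a replicate block and leaving out each array. Start-site windows came from RefSeq. Figures were drawn with matplotlib 3.10.9.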

Additional observations from a re-analysis of the deposited data

How the results depend on the processing

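The count of 7 ribosomal protein genes called lower became 0 with a pseudocount of 1 (132 of all rows called lower, against 580 in the reported fit), 0 with a replicate block (0 of all rows) and 0 to 0 without any 1 array (0 of all rows). It became 12 with array weights (1180 of all rows) and 21 with trended, robust eBayes (1502). Without the dimmest 30% of rows it was 21 of the 46 members left (1386 of all rows), and without the dimmest 50% it was 34 of 43 (2100); fewer rows were tested there. With the mean of a gene's rows, 5 of the 7 stayed called (586 of all rows called lower). Rpl12 (adjusted p = 0.0546) and Rpl23a (adjusted p = 0.0528, both by limma) did not. No member was called higher under any alternative run. The members' median log2 difference was -0.25 after quantile normalization and -0.30 after cyclic loess, an alternative added after the data had been seen; the large subunit medians were -0.22 and -0.30 and the small subunit medians -0.25 and -0.28. Cyclic loess called 7 members lower, beside 2.64% of all rows. Of these, 6 were shared with the 7 above, and the other was the small subunit gene Rps3 (-0.55, adjusted p = 0.045, limma). Without any 1 array the members' median ran from -0.66 to -0.45. The large minus small median was 0.06 with a pseudocount of 50 and 0.06 with array weights. Single genes whose sign turned were all uncalled. After quantile normalization the log2 differences were -0.075 for Rpl31, 0.18 for Rpl39l, -0.074 for Rpl3l, 0.013 for Rpl7l1, 0.05 for Rpl9, 0.051 for Rplp0, 0.031 for Rps27 and 0.16 for Rps27l. Under cyclic loess they were -0.027 for Rpl31, 0.15 for Rpl39l, -0.01 for Rpl3l, 0.025 for Rpl7l1, 0.0059 for Rplp0 and 0.12 for Rps27l. Array weights gave -0.082 for Rpl31, 0.014 for Rpl39l and -0.037 for Rpl3l, and median centring gave 0.0038 for Rpl39l. Without any 1 array, Rpl31 ranged from -0.34 to 0.44, Rpl39l from -0.17 to 0.15, Rpl3l from -0.0039 to 0.43 and Rps27l from -0.33 to 0.16. The causes were not tested. The replicate numbers were not taken to pair the samples, and under the block 34 members were lower at an unadjusted p under 0.05 in limma, beside 17.2% of all rows. Rows near the background, such as Rpl31 and Rpl3l, are the least certain.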
